A study of Mus musculus with 9 samples.

Results

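The genes of RNA N6-methyladenosine (m6A) were examined in growing mouse oocytes. The members were chosen by gene name, as 3 writers (Mettl3, Mettl14 and Wtap), 5 readers (Ythdc1, Ythdc2, Ythdf1, Ythdf2 and Ythdf3) and 2 erasers (Alkbh5 and Fto), 10 of the 28052 genes counted. RNA-Seq libraries had been made from XX, XO and XY females at 18 dpp, with 3 samples of each genotype, and each sample pooled 30 oocytes, 10 of 50–55 µm and 20 of 55–60 µm in diameter. Males of the B6.YTIR strain, mated to B6 females, gave the XY females and the XX females of the same litters, and XY females were identified by PCR of Zfy. XO females came from males that carried Paf, a line moved from C3H/HeSnJ onto B6 by backcrossing, so that genotype and cross cannot be told apart in any comparison with XO oocytes, and they were recognized by the absence of Xist transcripts in the tail. The strain label of all samples was C57BL/6, and no treatment was given. XX oocytes were compared with XO and with XY oocytes, and XY with XO oocytes, to follow the effects of the second X chromosome and of the Y chromosome.

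N6-methyladenosine is the most abundant internal modification of mRNA. METTL3 is the catalytic subunit of the nuclear writer complex, METTL14 binds the RNA substrate, and WTAP anchors both at nuclear speckles. The mark is read by proteins with a YTH domain. YTHDC1 acts in the nucleus on splicing and export, YTHDF proteins act in the cytoplasm mainly on mRNA turnover, and YTHDC2 is an RNA helicase known for its requirement in meiotic germ cells. ALKBH5 and FTO remove the methyl group. In mouse oocytes, loss of Ythdc1 or Ythdf2 is known to impair maturation or developmental competence. Only transcripts were measured here, and neither the proteins nor the mark.

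Depth ranged from 2130145 to 3157338 gene UMIs per sample, a UMI being the molecular tag that lets each transcript be counted once at its 5′ end. Spike-in RNAs made up 0.204–0.862% of UMIs. Levels are given as normalized CPM, the UMIs scaled by the gene total and by a spike-in factor, in which 1 UMI was worth 0.302–0.565. All 12 oocyte markers were detected in each genotype, and their summed level was between 18681 and 31841 normalized CPM, of which Zp2 made up 14079 on average. The sum of the 8 granulosa cell markers measured was 24.5–44.8 in XX samples, 13.5–44.6 in XO samples and 27.9–57.7 in XY samples, and Cyp19a1 and Kitl made up most of it. Amhr2, Fst, Inha and Wt1 were at 0 in all XX samples. The 5 markers of theca and stroma summed to 0.70–4.99, and 4 Y-linked genes summed to 0.36–1.69 in XX and XO against 288–406 in XY samples. Since the samples were pools, fewer transcripts per oocyte and fewer oocytes with the transcript cannot be told apart.

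All 10 genes were detected in all 9 samples, and all lie on autosomes. Ythdc2 had the highest mean level at 385 normalized CPM, above 98.7% of detected genes. Ythdf3 and Alkbh5 followed at 69.0 and 66.2 normalized CPM, and Ythdf2, Ythdf1, Wtap, Mettl3 and Ythdc1 lay between 54.4 and 23.9. Mettl14 at 8.39 and Fto at 2.49 normalized CPM were the lowest. Divided by exonic length, the mean level was 43.3 normalized CPM per kb for Ythdc2 and between 11.1 and 14.0 for Ythdf1, Ythdf3, Ythdf2 and Alkbh5. It was 5.95 for Mettl3, 5.27 for Wtap, 1.75 for Ythdc1, 1.13 for Mettl14 and 0.19 for Fto. A molecule is counted once whatever its length, so both scales are given. In normalized CPM, every sample of Ythdc2 lay above every sample of the other genes, and Mettl14 lay below Ythdc1 without overlap. The ranges of neighbours from Ythdf3 to Ythdc1 overlapped, and none of these genes was above the next in every sample. Those of Mettl14 and Fto overlapped too, but within every sample Mettl14 was above Fto, with 185 against 52 UMIs in all.

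**Figure D1:**
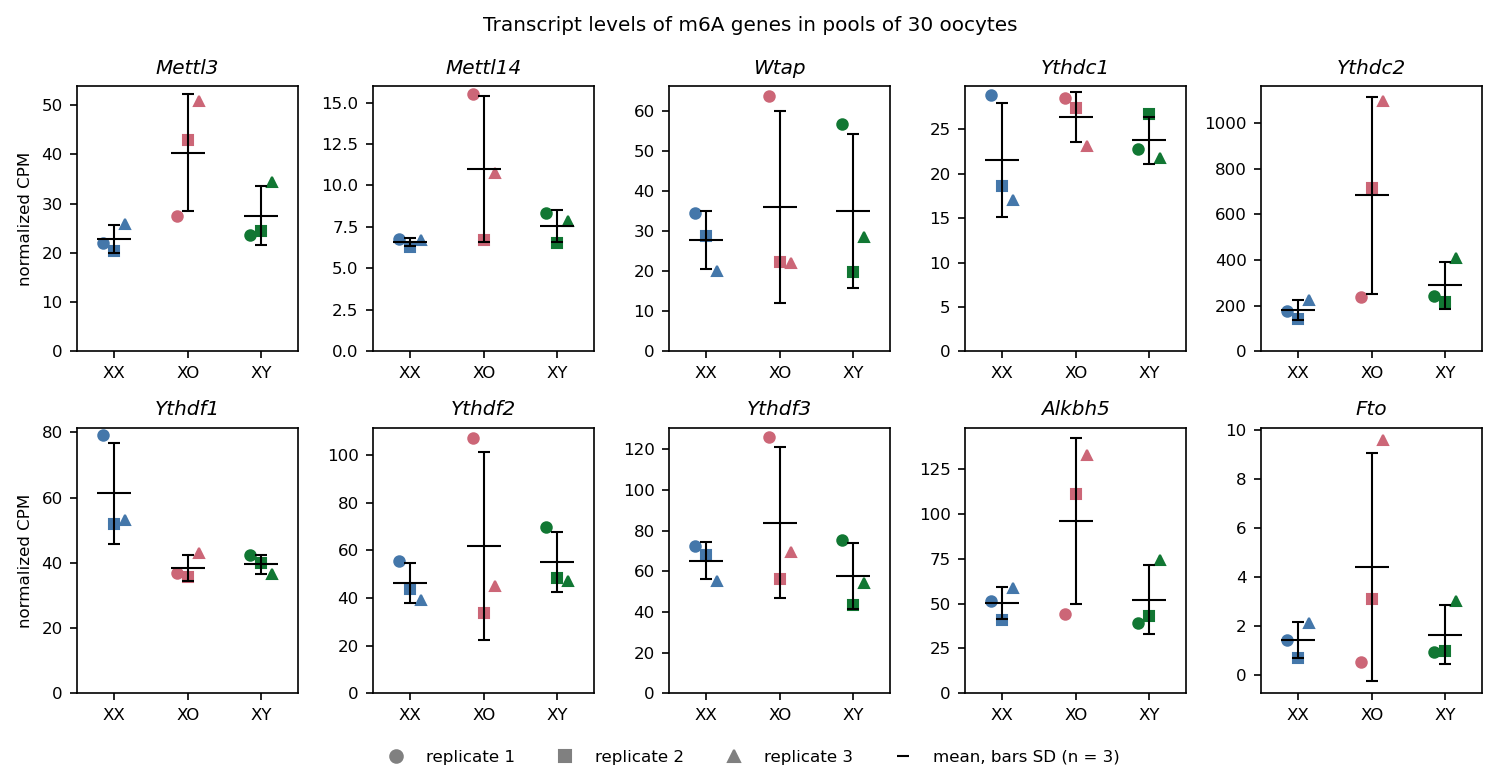
Level of each gene in normalized CPM (linear y axis, its own scale per gene) in the 3 samples of each genotype, with the mean and SD in black. Ythdc2 reached 1096 in 1 XO sample against 143–227 in XX samples, and the 3 XX samples of Ythdf1 lay above all XO and XY samples.

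Mettl3 lies on chromosome 14 (GRCm38, chr14:52294841-52305128, minus strand), and its 3′ end overlaps that of Tox4 on the other strand. Alkbh5 is on chromosome 11 (chr11:60536381-60558512, plus strand) and Ythdf1 on chromosome 2 (chr2:180904377-180920949, minus strand). The 250 bases before the RefSeq start (GRCm38.p6) are shown for these 3, since Mettl3 and Alkbh5 varied alike among samples while Ythdf1 was the gene higher in XX oocytes. Capitals mark the GC box GGGCGG and the E-box CACGTG on either strand.
Mettl3, chr14:52305125-52305374, minus strand: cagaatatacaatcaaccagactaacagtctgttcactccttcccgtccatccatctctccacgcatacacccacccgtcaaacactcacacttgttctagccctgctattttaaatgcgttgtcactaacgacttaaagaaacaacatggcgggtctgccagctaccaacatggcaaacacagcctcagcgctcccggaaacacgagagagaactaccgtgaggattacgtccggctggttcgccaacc
Alkbh5, chr11:60537433-60537682, plus strand: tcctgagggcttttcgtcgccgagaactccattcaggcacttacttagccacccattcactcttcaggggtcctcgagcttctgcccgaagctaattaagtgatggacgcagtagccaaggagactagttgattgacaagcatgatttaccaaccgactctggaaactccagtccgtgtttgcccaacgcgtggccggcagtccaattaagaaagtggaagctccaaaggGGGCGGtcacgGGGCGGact
Ythdf1, chr2:180920937-180921186, minus strand: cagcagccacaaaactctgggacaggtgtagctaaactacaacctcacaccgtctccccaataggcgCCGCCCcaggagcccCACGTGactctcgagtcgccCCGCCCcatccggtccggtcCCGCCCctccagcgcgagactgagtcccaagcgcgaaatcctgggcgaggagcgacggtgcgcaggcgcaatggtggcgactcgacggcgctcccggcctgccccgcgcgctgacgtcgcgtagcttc
The Ythdf1 window held 3 GC boxes, 1 E-box and 30 CpG dinucleotides. That of Alkbh5 held 2 GC boxes and 14 CpG, and that of Mettl3 held neither motif and 13 CpG. Among 32851 promoter windows of the same length, 32.7% held a GC box and 6.02% this E-box, and the median number of CpG was 6. The motifs do not overlap each other. The Ythdf1 and Alkbh5 windows also held 1 CCAAT box each, not marked here, and 33.8% of all windows held this box. Windows were matched for 7 of the 10 genes, and their 9 windows held between 13 and 41 CpG. GC boxes were not particular to Ythdf1, since the window of Ythdc1 held 4 of them and 30 CpG. The Alkbh5 window lies within the gene span given above, as its RefSeq start is downstream of the start of that span. A match describes the letters of the window and not a bound site.

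Differences between genotypes were tested for 9 of the 10 genes with edgeR on all 10993 genes that passed the filter on low counts, since Fto did not pass it. A gene was called at an unadjusted p of 0.05, and 18.1% of tested genes were called in XX against XO, 5.8% in XX against XY and 9.93% in XY against XO. Between XX and XO, Ythdf1 was called higher in XX, as were 1.4% of tested genes, and Mettl3 and Ythdc2 were called higher in XO, as were 16.7%. The 2 of 9 higher in XO are close to that background. Between XX and XY, Ythdf1 was the 1 member called, higher in XX, where 1.41% of tested genes were. Between XY and XO, Ythdc2 was the 1 member called, higher in XO, where 8.24% were. The samples of XX lay above those of XO without overlap in 1 member and in 2.79% of tested genes, and below them in 2 members and in 13.6%. They lay above those of XY in 1 member and in 4.15% of tested genes. XY and XO samples overlapped in all 9 members, while 3.88% of tested genes were without overlap and higher in XY and 6.34% higher in XO. Within same-numbered pairs, XO was above XY in all 3 pairs for 5 of the 9 members (Mettl3, Mettl14, Ythdc1, Ythdf3 and Alkbh5), as for 25.6% of tested genes. With the replicate numbers as a block, 2 members were called in XY against XO, Ythdc2 and Alkbh5, while the calls over all genes went from 1092 to 1827, or 16.6%. After Benjamini-Hochberg adjustment edgeR called 0 members in each comparison, where it called 0%, 0.0819% and 0.0364% of tested genes, and DESeq2 called 1 member, Ythdc2, in XX against XO, where it called 4.25%. Adjusted calls in XX against XO were also made with no filter on low counts (Ythdc2), where 1607 of 28051 genes were called. With a surrogate variable Mettl3, Ythdc2, Ythdf1 and Alkbh5 were called after adjustment, where 2840 of 10993 genes were.

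All genes together were shifted between genotypes on this scale. The median log2 fold change of tested genes was −0.46 in XX against XO, −0.19 in XX against XY and −0.30 in XY against XO, each given as the first genotype over the second. The median of the 9 members was −0.42, −0.20 and −0.54, respectively. In XX against XO, 154 genes were called higher in XX and 1832 higher in XO. With factors made from the genes themselves (TMM), the split was 649 and 662, and the median moved to −0.03. With spike-in totals the split was 290 and 53, and the median was 0.42. The study describes the opposite of the first split, with X-linked and many autosomal transcripts lower in XO than in XX oocytes. The cause of this difference was not tested. The 3 comparisons share samples pairwise, so their values are not independent of one another.

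**Figure D2:**
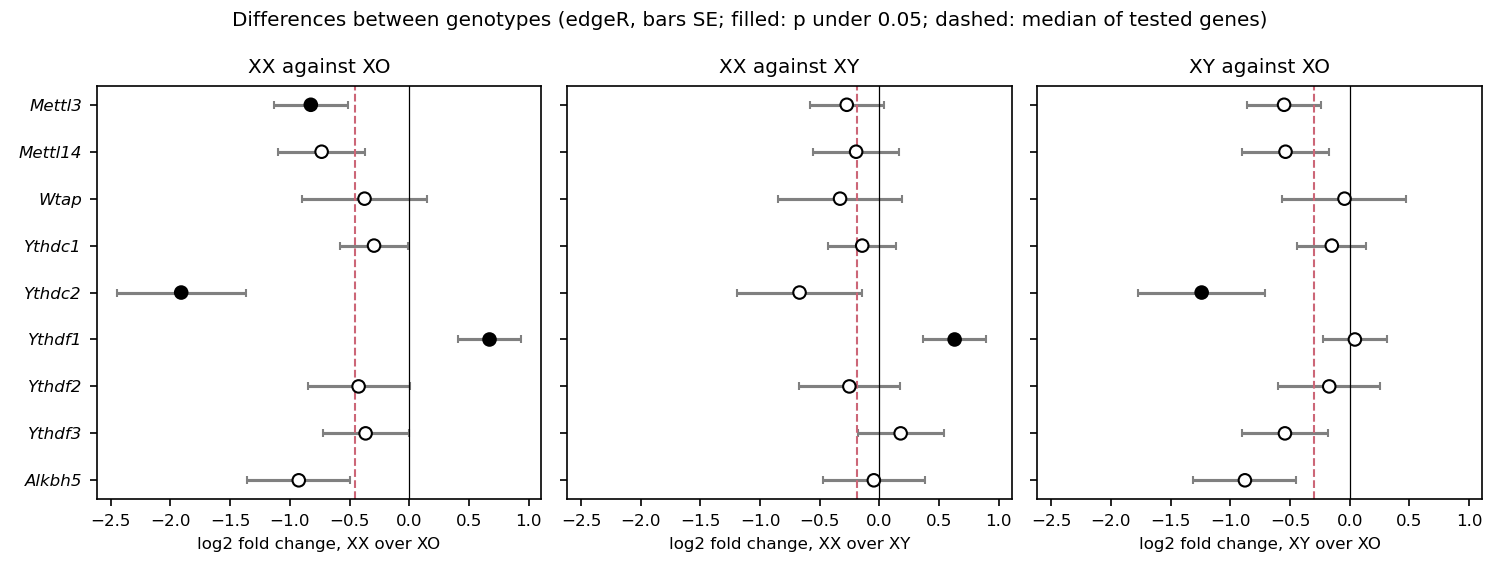
Log2 fold change (x axis) of the 9 tested m6A genes (y axis) in each comparison, with the standard error as bars. Filled points had an unadjusted edgeR p under 0.05, and the dashed line is the median of all tested genes, which lay below 0 in all 3 comparisons. Ythdc2 lay farthest below and Ythdf1 above 0 in XX against XO.

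Of the writers, Mettl3 was higher in XO than in XX oocytes. Mettl3 measured 22.1, 20.3 and 25.9 normalized CPM in XX1, XX2 and XX3, 27.4, 42.9 and 50.8 in XO1, XO2 and XO3, and 23.7, 24.4 and 34.4 in XY1, XY2 and XY3. All XO samples were above all XX samples, while XO1 was close to them and XY samples overlapped with both. The XO mean was 1.77-fold the XX level in the edgeR fit (log2 fold change −0.82 ± 0.31 SE, unadjusted p = 0.0247, adjusted p = 0.231, n = 3). Relative to the median of all genes it was −0.37, it was −0.35 and not called with gene TMM factors, and with spike-in totals it turned to 0.08. The call was also lost with gene RLE factors (−0.44), with no filter on low counts, and without XX1, XX2, XO2 or XO3, with values from −0.80 to −0.63. Mettl3 and Tox4 overlap at their 3′ ends on opposite strands, and a part of Tox4 in the Mettl3 level was not tested.

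Mettl14, the RNA-binding partner, measured 6.77, 6.30 and 6.70 normalized CPM in XX samples, 15.5, 6.72 and 10.7 in XO samples and 8.37, 6.51 and 7.85 in XY samples. It was highest in XO1 and XO3, and XO2 lay within the range of the other genotypes. Its log2 fold change in XX against XO was −0.73 ± 0.36 SE (edgeR, unadjusted p = 0.0723). Wtap measured 34.6, 28.7 and 20.1 in XX samples, 63.7, 22.2 and 22.02 in XO samples and 56.7, 19.9 and 28.7 in XY samples. The genotypes overlapped, and the 2 highest values belonged to XO1 and XY1. Its log2 fold change was −0.37 ± 0.52 SE in XX against XO, and it was 0.33 without XO1. The share of Mettl14 among UMIs of Mettl3 and Mettl14 was 22.6% ± 1.74 in XX samples, 22.4% ± 12.1 in XO samples and 21.9% ± 3.83 in XY samples (SD, n = 3).

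Of the YTHDC readers, Ythdc2 differed most. Ythdc2 on chromosome 18 measured 175.6, 142.9 and 226.7 normalized CPM in XX1, XX2 and XX3, 237, 717 and 1096 in XO1, XO2 and XO3, and 243.5, 215.2 and 408 in XY1, XY2 and XY3. All XO samples were above all XX samples, by a narrow margin in XO1, and XY samples overlapped with both. Its level in XO was 3.76-fold that in XX oocytes in the edgeR fit (log2 fold change −1.91 ± 0.54 SE, unadjusted p = 0.0057, adjusted p = 0.203, n = 3). Relative to the median of all genes it was −1.45. The difference kept its sign in every setting and was called in all but one of them, which scaled samples by spike-in totals (−0.99). Without XO1 the log2 fold change was −2.32, and without XO3 it was −1.39.

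XY oocytes lay between the others in mean Ythdc2 level, at 289 normalized CPM against 182 in XX and 683 in XO oocytes. The log2 fold change in XY against XO was −1.24 ± 0.53 SE (edgeR, unadjusted p = 0.0422, adjusted p = 0.498), and −1.14 (unadjusted p = 0.0243) with the replicate block. Within pairs, the log2 ratio of XY to XO was 0.038 for number 1, −1.74 for number 2 and −1.42 for number 3, so that the first pair did not share the difference. It lost its call under 7 of the 9 leave-one-out settings, all except those without XO1 (−1.65) and without XY3. It was also lost with gene TMM, gene RLE and spike-in total scaling and with limma. The difference of XX from XY was −0.67 ± 0.52 SE and not called. Ythdc1, the nuclear reader on chromosome 5, measured 28.9, 18.6 and 17.1 in XX samples, 28.5, 27.4 and 23.1 in XO samples and 22.8, 26.7 and 21.7 in XY samples. These ranges overlapped, and its 3 log2 fold changes lay between −0.29 and −0.14, none of them called.

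Of the YTHDF readers Ythdf1 was called, and a difference between it and the others was not tested. Ythdf1, which is known to promote translation of methylated mRNA, measured 79.1, 51.8 and 53.0 normalized CPM in XX1, XX2 and XX3, 36.8, 35.7 and 42.9 in XO1, XO2 and XO3, and 42.3, 40.0 and 36.5 in XY1, XY2 and XY3. Every XX sample was above every XO and XY sample, and XX1 was well above the other XX samples. In the edgeR fit Ythdf1 was 1.59-fold higher in XX than in XO (log2 fold change 0.67 ± 0.27 SE, unadjusted p = 0.0308, adjusted p = 0.245, n = 3). It was 1.55-fold higher in XX than in XY (0.63 ± 0.26 SE, edgeR unadjusted p = 0.0395, adjusted p = 0.801). Relative to the medians of all genes these were 1.13 and 0.82, and with gene TMM factors the first was 1.10. XX1 carried part of both, since without it they were 0.45 and 0.40 and neither was called. The first was also lost without XO2 and with no filter on low counts, and the second without XO2, XY1, XY2 or XY3, with no filter and with spike-in totals. XO and XY samples overlapped, with a log2 fold change of 0.04 ± 0.27 SE in XY against XO.

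Ythdf2, the best known reader of mRNA decay and a maternal factor in oocytes, measured 55.6, 43.8 and 39.3 normalized CPM in XX samples, 107, 33.6 and 45.2 in XO samples and 69.7, 48.5 and 47.1 in XY samples. Ythdf3, which shares targets with the other 2, measured 72.7, 67.9 and 55.1 in XX samples, 126, 56.4 and 69.4 in XO samples and 75.3, 43.6 and 54.3 in XY samples. In both, the genotypes overlapped and XO1 was the highest of the 9 samples. Their log2 fold changes in XX against XO were −0.42 ± 0.43 SE and −0.37 ± 0.36 SE, and both turned positive without XO1, to 0.23 and 0.05. Neither was called in the fit of all 9 samples with spike-in factors and no surrogate variable.

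The make-up of the Ythdf transcripts does not depend on the scaling of a sample. Ythdf1 made up 31.7–38.1% of Ythdf UMIs in XX samples, 13.6–28.4% in XO samples and 22.6–30.3% in XY samples, so that the lowest XX sample was above the highest of the others. The means were 35.3% ± 3.28, 23.1% ± 8.23 and 26.5% ± 3.86 (SD, n = 3). XO1 lowered the XO mean, at 13.6% against 28.4% and 27.2% in XO2 and XO3, and the mean was 27.8% without it. The share of Ythdf2 was 26.7% ± 0.079 in XX and 36.0% ± 1.65 in XY samples, without overlap, and 31.7% ± 6.96 in XO samples. In XO1 it was 39.7%, against 26.7% and 28.7% in XO2 and XO3, near the XX samples. Ythdf3 made up 38.0%, 45.2% and 37.5% in XX, XO and XY oocytes, respectively, and its XO samples, at 44.1–46.7%, were above all others. Ythdc2 made up 33.2–44.9% of the UMIs of all 10 genes in XX samples, 34.5–72.9% in XO samples and 41.8–57.0% in XY samples. Writers made up 11.9%, 9.30% and 12.0%, readers 77.5%, 81.8% and 79.0% and erasers 10.7%, 8.92% and 9.01% in XX, XO and XY oocytes. The writer share in XO rested on XO1, at 15.5% against 6.81% and 5.56% in XO2 and XO3, and the mean was 6.18% without XO1. These shares were described without a test.

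**Figure D3:**
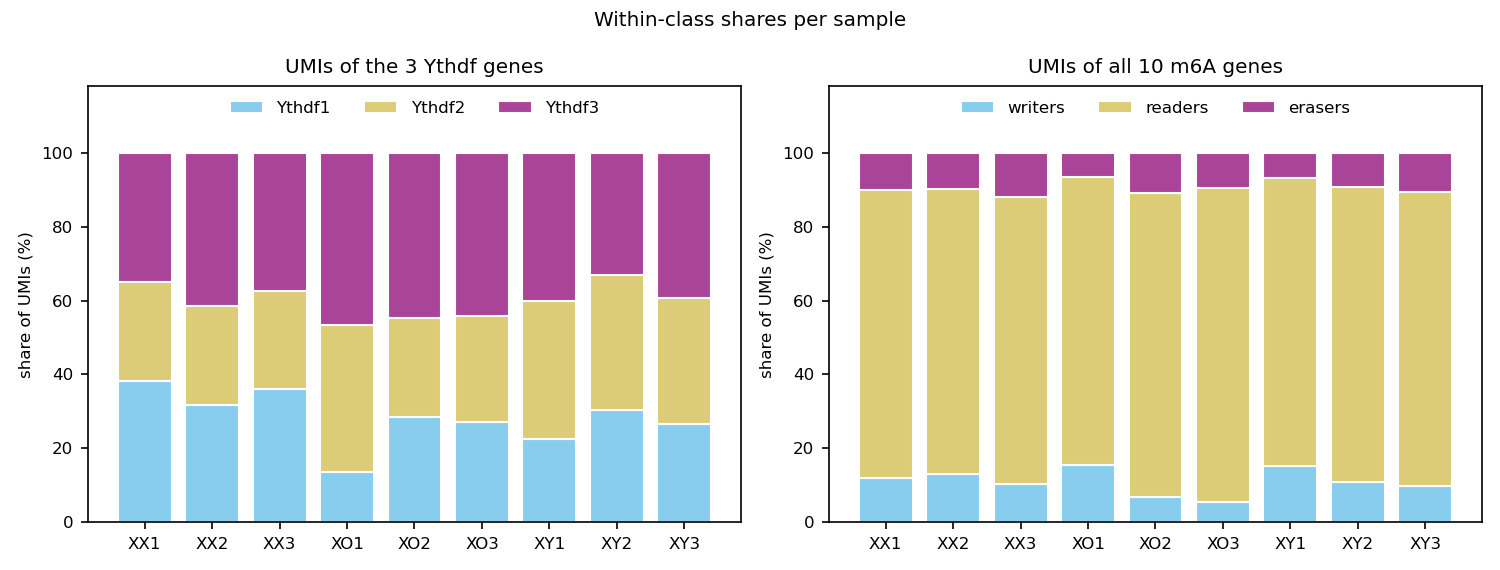
Share of UMIs in percent (y axis) per sample (x axis) among the 3 Ythdf genes, left, and among writers, readers and erasers of all 10 genes, right. The blue Ythdf1 segment is 31.7–38.1% high in the XX bars and lower in each XO and XY bar, and readers make up most of every bar on the right.

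Of the erasers, Alkbh5 was the abundant one. Alkbh5, whose product demethylates nuclear RNA, measured 51.6, 41.0 and 58.8 normalized CPM in XX1, XX2 and XX3, 44.0, 111 and 133 in XO1, XO2 and XO3, and 39.0, 43.0 and 74.3 in XY1, XY2 and XY3. XO2 and XO3 were above all other samples, whereas XO1 lay among the XX samples. The log2 fold change was −0.93 ± 0.43 SE in XX against XO (edgeR, unadjusted p = 0.0590, adjusted p = 0.287) and −0.88 ± 0.43 SE in XY against XO (unadjusted p = 0.0705), neither called. With the replicate block the second was −0.85 in edgeR (unadjusted p = 0.0355, adjusted p = 0.271) and called. Without XO1 they were −1.27 and −1.22, each called. With gene TMM factors the first was −0.43 and not called. XX and XY samples overlapped, with a log2 fold change of −0.05 ± 0.43 SE.

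Fto, which demethylates m6A and the cap-adjacent mark m6Am, was near the limit of detection. It had 4, 2 and 7 UMIs in XX samples, 1, 6 and 17 in XO samples and 2, 3 and 10 in XY samples. The genotypes overlapped, and replicate 3 was the highest in each of them. Fto made up 2.62% of eraser UMIs on average in XX samples, 3.54% in XO samples and 2.82% in XY samples, and the XO value was 1.94% without XO3. It did not pass the filter on low counts, and in the fit without a filter it was called higher in XO than in XX oocytes.

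Replicates 1 and 3 differed in the same direction in all genotypes for most members. Mettl3, Ythdc2, Alkbh5 and Fto were lower in replicate 1 than in replicate 3 in XX, XO and XY oocytes, and Mettl14, Wtap, Ythdc1, Ythdf2 and Ythdf3 were higher. These are 9 of the 10 genes, where 63.7% of tested genes kept 1 direction in all 3 genotypes. Ythdf1 was the exception, with ratios of replicate 1 to replicate 3 of 1.49 for XX, 0.86 for XO and 1.16 for XY oocytes. Some of the 9 were near ties, with ratios of 1.01 for Mettl14 in XX and 1.07 and 1.05 for Mettl14 and Ythdc1 in XY oocytes. For Ythdc2 the ratios were 0.77, 0.22 and 0.60, and for Wtap they were 1.72, 2.89 and 1.98 in XX, XO and XY oocytes. Both were farthest from 1 in XO. Replicate 2 did not follow such a pattern, since for Ythdc2 it was the lowest in XX and XY and well above replicate 1 in XO oocytes. What a replicate number marks was not described. Granulosa marker sums were likewise highest in replicate 3 of each genotype, at 44.8, 44.6 and 57.7 normalized CPM. In XY oocytes this rested on Cyp19a1, at 10.2, 18.6 and 44.4 in XY1, XY2 and XY3. Kitl, the other main part of the sum, was highest in XY1. A rise of the granulosa markers as a set was thus not shown in XY oocytes. The part of granulosa markers in the levels of the m6A genes was not tested.

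**Figure D4:**
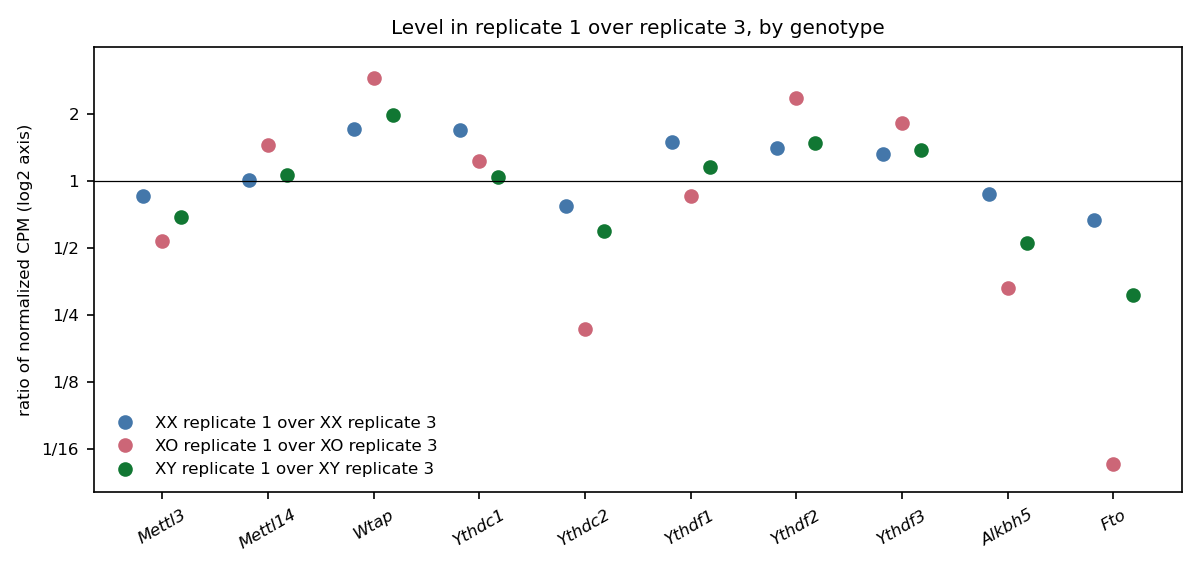
Ratio of the level in replicate 1 to that in replicate 3 (y axis, log2 scale) for each m6A gene (x axis) in XX, XO and XY oocytes. Points above the line were higher in replicate 1; 5 genes lie above and 4 below it in all genotypes, and the Fto point of XO rests on 1 UMI against 17.

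XO1 stood apart from XO2 and XO3 in 6 of the 10 genes by more than 2-fold, as did 56.5% of tested genes. Ythdc2, Alkbh5 and Fto were lower in XO1, at 0.26, 0.36 and 0.082 of the mean of XO2 and XO3. Wtap, Ythdf2 and Ythdf3 were higher in it, at 2.88, 2.72 and 2.01 of that mean. Without XO1, 4 members were called in XX against XO, where 36.9% of tested genes were, namely Mettl3 (−1.04), Ythdc2 (−2.32), Alkbh5 (−1.27) and Ythdf1 (0.64). Between XY and XO there were 3, where 32.1% of tested genes were called, namely Mettl3 (−0.76), Ythdc2 (−1.65) and Alkbh5 (−1.22). After adjustment without XO1, 3 members (Mettl3, Ythdc2 and Alkbh5) were called in XX against XO and 2 (Ythdc2 and Alkbh5) in XY against XO, against 25.2% and 14.2% of tested genes. The calls of genes in general thus rose as well when XO1 was left out. Of the 12 oocyte markers, Nobox, Gdf9 and Zp1 differed among XO samples in the same order as Ythdc2. So did Zp2, Zp3, Bmp15, Figla, Kit and Nlrp5. The other markers were highest in XO1. In XO1, XO2 and XO3, Oosp1 measured 9137, 2494 and 2495 normalized CPM, Ddx4 608, 438 and 420, and Dazl 293, 141 and 140. The order was thus not shared by all oocyte genes. Nobox, an oocyte transcription factor, measured 56.4, 522 and 1138 normalized CPM in XO1, XO2 and XO3 against 62.0–109 in XX samples. Gdf9, an oocyte growth factor, measured 339, 869 and 2432 against 252–319, and Zp1, a zona pellucida gene, 14.0, 759 and 2166 against 48.0–112. Zp3, Kit and Nlrp5 in XO2 and XO3 were also above all XX samples. Zp2, Bmp15 and Figla were not, as XO2 measured 14837, 864 and 12.9 against 15914–17150, 810–1068 and 9.10–15.8 in XX samples. The study reported no Gdf9 difference among the genotypes at this size. The part of these markers in the levels of Ythdc2, Mettl3 and Alkbh5 was not tested.

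Of 28 genes of the m6A pathway that are not among the 10, 24 passed the filter. Against XX oocytes 1 of the 24 was called in each comparison, Meioc, which was higher in XO and in XY oocytes. Of tested genes 18.1% were called in XX against XO and 5.8% in XX against XY. Between XY and XO 2 of the 24 were called, Igf2bp2 and Nxf1, both higher in XO, where 9.93% of tested genes were called. None of these counts exceeded the share over all genes. The median log2 fold changes of the 24 genes were −0.54, −0.06 and −0.35, near the medians of all genes. Meioc encodes the partner that binds YTHDC2 in meiotic germ cells. It had 1, 2 and 2 UMIs in XX1, XX2 and XX3, 15, 12 and 5 in XO1, XO2 and XO3, and 14, 15 and 15 in XY1, XY2 and XY3. Every XO and XY sample was above every XX sample, and all were low, with at most 7.77 normalized CPM. Meioc passed the filter through XO and XY samples.

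Summed over samples and scaled, Meioc was 10.2-fold higher in XO than in XX (95% exact interval 3.93–33.4, 32 against 5 UMIs) and 9.22-fold higher in XY (3.67–29.8, 44 UMIs), intervals that cover counting error only. The edgeR log2 fold changes were −3.23 ± 0.56 SE in XX against XO and −3.13 ± 0.55 SE in XX against XY. They are given as a description, since a gene that passed the filter only through the genotypes where it is high had to differ. In the fit without a filter Meioc was called in both comparisons, as were 3953 and 1214 of 28051 genes, respectively.

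Igf2bp2, of a family of proposed readers that stabilize mRNA, was lower in XY than in XO (log2 fold change −0.86 ± 0.37 SE, edgeR unadjusted p = 0.0423, adjusted p = 0.498), and so was Nxf1, the mRNA export receptor (−0.78 ± 0.31 SE, unadjusted p = 0.0286, adjusted p = 0.485). Of the other writer complex genes Cbll1, which encodes the HAKAI subunit, had the highest mean level, 68.9 normalized CPM, and its 3 log2 fold changes lay between 0.07 and 0.19. Trmt112, the partner of several RNA methyltransferases, was at 46.6, Hnrnpc at 408, the exonuclease gene Xrn1 at 43.6 and the deadenylase gene Cnot7 at 277. None of these was called. Srsf3, a splicing factor that YTHDC1 recruits, averaged 181 normalized CPM. It measured 76.2, 63.7 and 165 in XX samples, 34.2, 410 and 544 in XO samples and 42.3, 103 and 190 in XY samples. XO1 was its lowest sample, and the log2 fold change of −1.69 ± 0.88 SE in XX against XO was not called. Igf2bp1, Rbmx, Pcif1 and Prrc2a did not pass the filter.

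**Figure D5:**
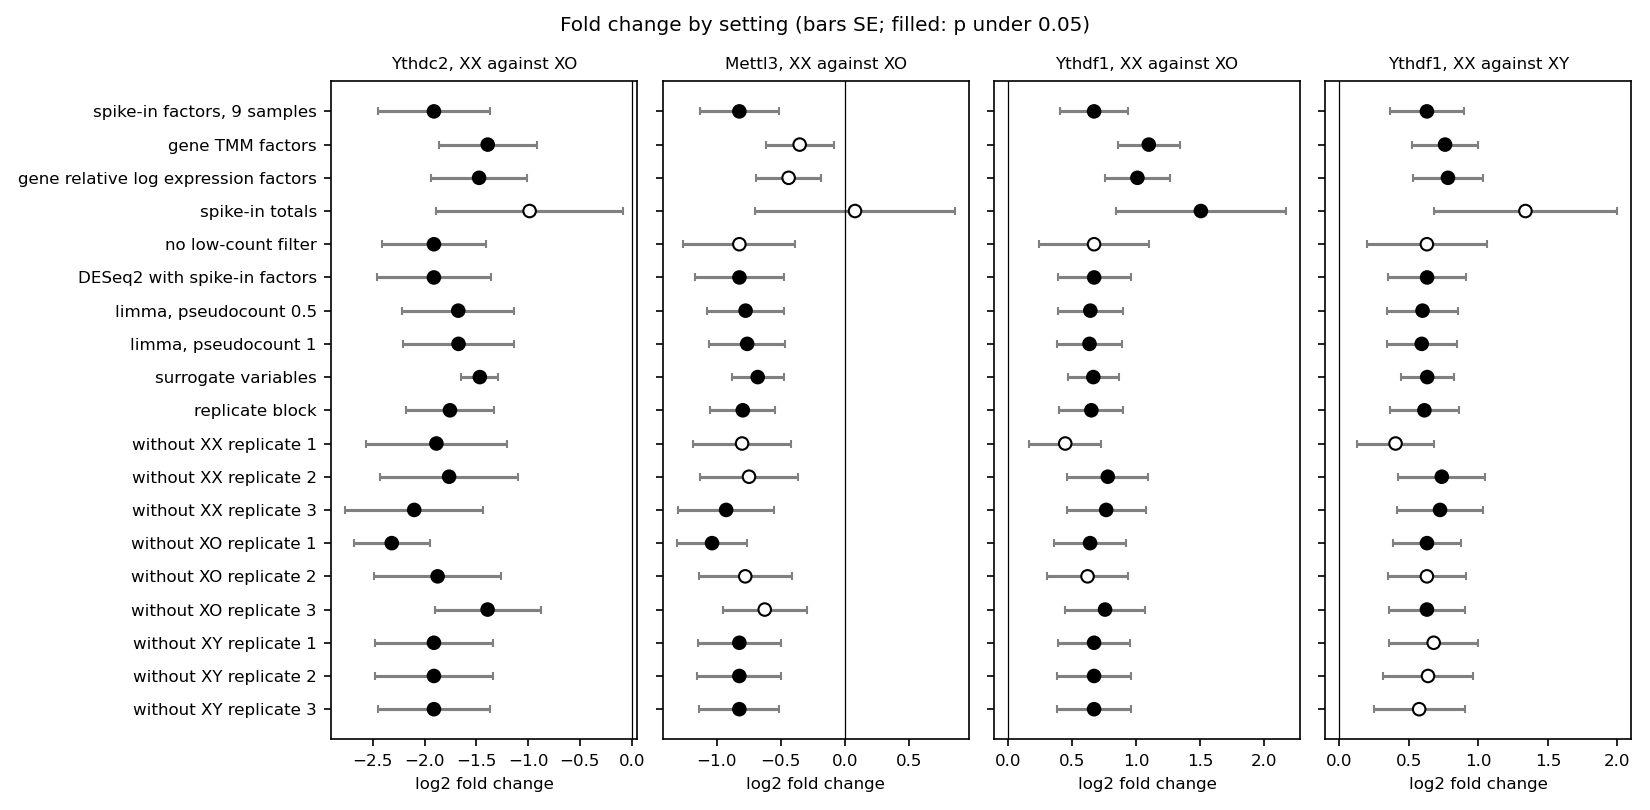
Log2 fold change (x axis) of the called differences of Ythdc2, Mettl3 and Ythdf1 from XX oocytes under each setting (y axis), with the standard error as bars and points filled where the unadjusted p was under 0.05. Ythdc2 stayed below 0 and Ythdf1 above 0 in all settings, whereas Mettl3 crossed 0 with spike-in totals.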

How the data were processed

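RNA of 9 pools of oocytes, 3 of each genotype by the sample labels, had been sequenced with Smart-seq3. The authors aligned reads with Hisat2 to GRCm38 and deposited 5′ UMI counts of 28052 genes and 79 ERCC spike-ins. A second deposited matrix holds a signal the authors call normalized CPM, the counts times 1 constant per sample, and another holds deposited log2 values with batch effects regressed out, used here only for coordinates and names. The XO column without a number was taken as replicate 1. Counts were tested with the quasi-likelihood F test of edgeR 4.0.16 (low counts filtered by filterByExpr, gene totals times the TMM factor of the spike-ins, all samples in 1 fit, two-sided). The spike-in factor is relative to the spike-in total, so RNA per oocyte does not enter it. Calls used an unadjusted p of 0.05, the threshold of the study, with Benjamini-Hochberg values beside them. The model of the study was another one, limma with surrogate variables as covariates. A surrogate variable entered here only as an alternative setting of edgeR. Nothing says whether the pools came from separate animals beyond the term biological triplicate, so p-values measure the spread between these pools.

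Same-numbered samples were checked for pairing by the correlation of their deviations from the genotype means. It was 0.818, 0.272 and 0.766 for XY with XO, taken as paired. For XX it was 0.450, −0.427 and 0.665 with XO and 0.416, −0.058 and 0.711 with XY. XX was not taken as paired because of number 2, although numbers 1 and 3 were positive. For samples of unlike number it was 0.707 for XY3 with XO2 and 0.157 for XY2 with XO3. The values thus set number 1 apart more than they pair numbers 2 and 3. The pairing comes from these correlations alone. Alternatives used DESeq2 1.42.0, limma 3.58.1 on log2 values with a pseudocount of 0.5 or 1, and sva 3.50.0 with 1 surrogate variable. In simulated data on the 10993 genes of XX against XO, with 200 genes changed, 38.5% of 2-fold and 90.6% of 4-fold changes were called, and 4.58% of unchanged genes. Gene structure came from Gencode vM21, which held 99.8% of the gene identifiers, and promoter windows from RefSeq.

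The members and all gene lists were chosen with earlier results of these data known. All 10 members are named, and of the 28 other pathway genes those called in a comparison and the one with the highest mean level of each subgroup. Of the markers, Amh, Foxl2, Col1a2, Col3a1 and 3 blood genes were not analysed here. Exact intervals are Clopper-Pearson at 95.0%. Depth was 2130145–3157338 UMIs per sample, and precision for Fto is limited by counts of 1–17.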

Additional observations from a re-analysis of the deposited data

How the results depend on the processing

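The 9 alternatives besides leaving out samples were gene TMM factors, gene RLE factors, spike-in totals, no filter on low counts, DESeq2, limma with a pseudocount of 0.5 or 1, a surrogate variable and the replicate block. Ythdc2 was lower and Ythdf1 higher in XX than in XO under all of them, with calls as given above. Shares in XO oocytes depended on single samples. Without single samples the writer share there was 6.18–11.2%, Fto of the erasers 1.94–4.73% and Ythdc1 of the Ythdc genes 2.88–7.20%. A limit of 1 SD cannot test this, since leaving out 1 of 3 samples cannot move a mean that far. Shares were recomputed without each sample and from pooled UMIs. A mean of differences within numbers equals the difference of the means and was not listed. The cause of the changes below was not tested.

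The count of members called in XX against XO went from 3 to 1 with spike-in totals and to 7 with the surrogate variable. In XX against XY it went from 1 to 0 with spike-in totals and with no filter and to 2 with the surrogate variable. Between XY and XO it went from 1 to 0 with TMM, RLE, spike-in totals and both limma settings, to 2 with no filter and with the replicate block and to 3 with the surrogate variable. TMM factors with the replicate block, added after seeing the data, gave 2, 1 and 1. Without single samples the counts were 1–4, 0–1 and 0–3 in the 3 comparisons.

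Among the other pathway genes, the count in XX against XO went from 1 to 3 with TMM, 2 with RLE, spike-in totals and DESeq2, 4 with no filter and with the block and 9 with the surrogate variable. In XX against XY it went from 1 to 2 with spike-in totals and 4 with the surrogate variable. In XY against XO it went from 2 to 0 with TMM, RLE and spike-in totals, 1 with both limma settings and 6 with the surrogate variable. Without single samples these were 1–8, 1–2 and 0–5.

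Over all genes, the calls in XX against XO were 1986, and 1311 with TMM (649 higher in XX and 662 in XO), 343 with spike-in totals (290 and 53), 3953 with no filter, 4188 with the surrogate variable and 1008–4279 without single samples. RLE split them into 472 and 868. In XX against XY they were 638, and 284 with spike-in totals, 1214 with no filter, 2518 with the surrogate variable, 1007 with the replicate block and 384–1283 without single samples, and the split of 155 and 483 became 284 and 304 with TMM, 293 and 276 with RLE and 244 and 40 with spike-in totals. For XY against XO they were 1092, and 136 with spike-in totals, 2735 with no filter, 3119 with the surrogate variable, 1827 with the replicate block and 425–3720 without single samples, and the split of 186 and 906 became 593 and 404 with TMM, 368 and 629 with RLE and 63 and 73 with spike-in totals. Spike-in totals moved the median of all genes to 0.42 in XX against XO and to 0.49 in XX against XY.

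Signs turned with spike-in totals in XX against XO for Mettl3 (0.080), Mettl14 (0.25), Wtap (0.54), Ythdc1 (0.50), Ythdf2 (0.58) and Ythdf3 (0.57). In XX against XY they turned for Mettl3 (0.42), Mettl14 (0.52), Wtap (0.39), Ythdc1 (0.51), Ythdc2 (0.029), Ythdf2 (0.49) and Alkbh5 (0.60). In XY against XO they turned for Wtap (0.15) and Ythdf2 (0.085). With TMM, Ythdc1 (0.11) and Ythdf3 (0.026) turned in XX against XO, Alkbh5 (0.12) in XX against XY, and Wtap (0.15), Ythdc1 (0.13) and Ythdf2 (0.049) in XY against XO. With RLE, Ythdc1 turned in XX against XO (0.021) and XY against XO (0.021), Alkbh5 in XX against XY (0.15) and Wtap in XY against XO (0.034). With limma, Wtap turned in XY against XO (0.016 and 0.015), and with the replicate block Wtap did there (0.012) and Alkbh5 in XX against XY (0.026). Except for Mettl3 in XX against XO, none of these was called in the fit of all 9 samples with spike-in factors and no surrogate variable. Mettl14 was called in XX against XO without XO2 and with the surrogate variable, which also called Ythdf2 and Ythdf3 there and Ythdc2 in XX against XY.

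Without single samples, Wtap ranged from −0.63 to 0.33 in XX against XO, −0.62 to 0.19 in XX against XY and −0.57 to 0.65 in XY against XO. Ythdf2 ranged from −0.72 to 0.23 in XX against XO and −0.47 to 0.48 in XY against XO, Ythdf3 from −0.59 to 0.053 in XX against XO, Alkbh5 from −0.22 to 0.30 in XX against XY and Ythdf1 from −0.0080 to 0.13 in XY against XO. Leaving out XO1 gave the positive values of Wtap, Ythdf2 and Ythdf3 in XX against XO. XX was not taken as paired with the others, since number 2 was not positively correlated while numbers 1 and 3 were. The block there added Alkbh5 to the members called in XX against XO. With 3 samples a genotype and a common dispersion of 0.201, 38.5% of simulated 2-fold changes were called.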
